A study of Drosophila melanogaster with 6 samples.

Results

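The locus described here lies on chromosome arm 3L of Drosophila melanogaster, where 1 peak of Klumpfuss (Klu) binding was listed with 3 genes, ftz-f1, Atg3 and Nufip. Its peaks were selected by their listed gene, as every 3L peak that either deposited peak table pairs with one of these genes, and the locus was chosen from peak heights that were already known. The rule found 2 peaks of 1122 in the coherent set and the same 2 of 1250 in the semicoherent set, with 3 of 1667 and 3 of 1858 listed gene identifiers. Since the read counts of the 3 Klu-Dam libraries chose the locus, those counts are given as a description and carry no test.

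Klu is a zinc-finger transcription factor of the WT1-like family, and its binding was profiled by targeted DamID, in which a bacterial adenine methylase (Dam) fused to the protein marks GATC sites close to where the protein sits. The 3 Klu-Dam libraries came from flies of the labelled genotype esgts, UAS-Flp, UAS-Klu Dam, and the 3 Dam-only libraries from esgts, UAS-Flp, UAS-Dam control. Both groups carried the esg driver with a temperature-sensitive Gal80 and the Flp recombinase, were raised at 18 °C, and were then moved to a higher temperature, at which this Gal80 no longer blocks Gal4, for 24 h before whole midguts were dissected. The labels give 30 to 40 midguts in a sample, and the methods of the study a higher upper limit. In the methods of the study esg-Gal4, active in intestinal stem cells and enteroblasts, drives Flp, which cuts out a stop cassette, and Dam is then read from a minimal hsp70 promoter. The excision is permanent, so cells that arise from these progenitors during the induction keep the transgene. Both constructs sat at the same landing site. The age and sex of the flies are not given in the sources used here. The replicates were isolated on different dates. Read counts were used for the Klu-Dam libraries alone, so the level of unfused Dam at this locus cannot be set beside the values. No transcripts were measured in these samples, and the paper's separate RNA-Seq of sorted Esg-positive cells was not used here.

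The genes belong to different pathways. ftz-f1 encodes a nuclear receptor of the NR5A class, which acts with the homeodomain protein Ftz in the segmentation of the embryo and later makes tissues competent to respond to the steroid ecdysone at metamorphosis. It is transcribed from more than 1 start, which gives proteins with different first parts. Atg3 encodes the E2-like enzyme that, after activation by Atg7, couples the ubiquitin-like protein Atg8 to phosphatidylethanolamine on the growing autophagosome, and autophagy is part of how the midgut is removed at metamorphosis and maintained in the adult. Nufip is the fly counterpart of NUFIP1, which in yeast and human cells helps to assemble box C/D small nucleolar ribonucleoproteins, the particles that guide methylation of ribosomal RNA.

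The first peak, called the shared peak, ran from 18750155 to 18753387 (3233 bp, Release 6 coordinates, counted from 1). It covered the last 329 bp of Atg3 (FBgn0036813, 18748687 to 18750483, plus strand), the 123 bp between the genes, and the last 2781 bp of ftz-f1 (FBgn0001078, 18750607 to 18801309, minus strand). Atg3 and ftz-f1 converge, so the peak held both of their 3' ends and the 5' end of neither. It took in 18.3% of the Atg3 gene body and 5.48% of the ftz-f1 gene body. Nufip (FBgn0036812, 18746611 to 18748367, minus strand) was not covered and ended 1788 bp before the peak. The second peak ran from 18763566 to 18766302 (2737 bp), lay wholly inside ftz-f1, and was listed with that gene alone.

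**Figure D1:**
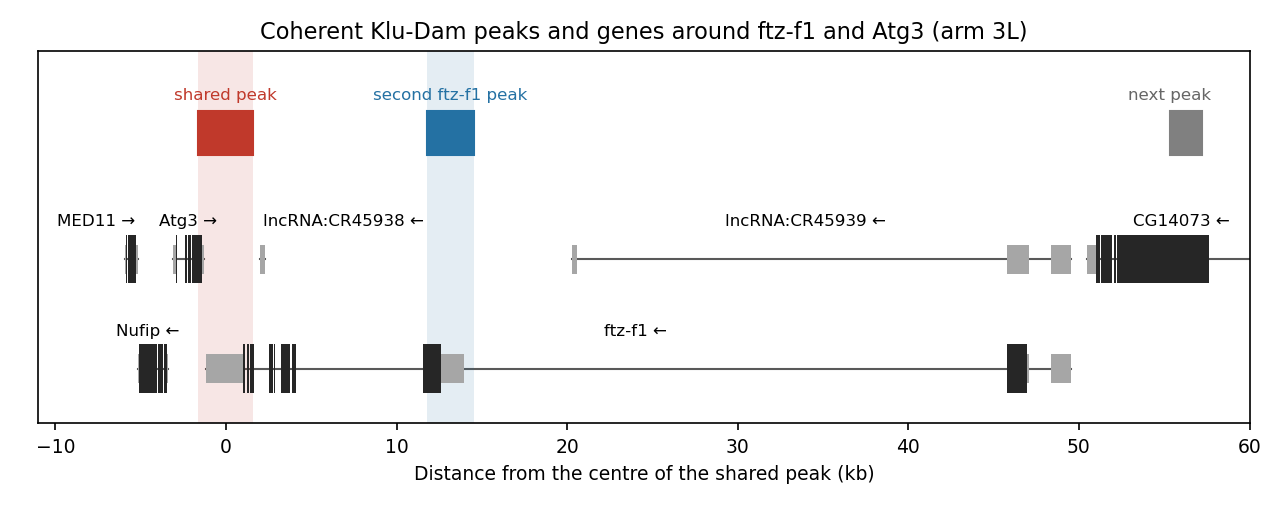
Map of the locus, with distance from the centre of the shared peak in kb on the x axis. Boxes in the top row are coherent peaks, with the next peak after the locus in grey. Below, black boxes are coding exons and grey boxes the rest of the exons, and arrows give the direction of transcription. The shared peak spans the facing 3' ends of Atg3 and ftz-f1, the second peak lies at the inner 5' ends of ftz-f1, and Nufip lies outside both.

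The ends of the peaks fell at GATC sites, where methylated DNA is cut. This follows from the pipeline of the study, which works on a map of GATC fragments, and is not a trait of this locus. The sites show which gene each edge belongs to. The stretches below run on the plus strand, with the GATC of the edge in capitals. The first edge of the shared peak lies in the last coding exon of Atg3 (chr3L:18750135-18750174), its last edge in a coding exon of ftz-f1 (chr3L:18753368-18753407), and the first and last edges of the second peak in a coding exon (chr3L:18763546-18763585) and an intron (chr3L:18766283-18766322) of ftz-f1. The fifth line is the whole intergenic stretch inside the shared peak (chr3L:18750484-18750606), printed because it is the only DNA there that belongs to neither gene.
Shared peak, first edge: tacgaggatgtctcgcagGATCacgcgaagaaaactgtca
Shared peak, last edge: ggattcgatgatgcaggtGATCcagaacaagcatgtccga
Second peak, first edge: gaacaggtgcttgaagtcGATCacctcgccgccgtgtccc
Second peak, last edge: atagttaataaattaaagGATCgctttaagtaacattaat
Between Atg3 and ftz-f1: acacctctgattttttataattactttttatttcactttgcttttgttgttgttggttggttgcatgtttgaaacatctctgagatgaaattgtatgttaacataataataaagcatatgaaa

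The intergenic stretch had a GC content of 26.8% and held 0 GATC sites, and it lay within a single GATC fragment of 305 bp that began in Atg3 and ended in ftz-f1.

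The shared peak held 416727 reads in Klu-Dam replicate 1, 315477 in replicate 2 and 422204 in replicate 3. Replicates 1 and 3 were close and replicate 2 was the lowest. As a share of all reads in coherent peaks these were 2.13%, 1.73% and 2.30%, and on arm 3L, with 211 coherent peaks, the shared peak held 10.6%, 8.60% and 10.3% of the reads. Scaled to 1000000 reads in coherent peaks (CPM), it stood at 20537 ± 2964 (SD, n = 3), where the median coherent peak had 155. The sums behind this scale were 19521921, 18287201 and 18347327 reads for replicates 1, 2 and 3. With the rounded read totals of the whole libraries as the denominator, the value was 11246 ± 1599 CPM (SD, n = 3).

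The second peak was more than 90-fold lower in every library. It held 3749, 3409 and 2781 reads in replicates 1, 2 and 3, or 177 ± 21.9 CPM (SD, n = 3), which is close to the median peak. The counts of the peaks did not overlap, and the shared peak was 111-fold higher in replicate 1, 92.5-fold in replicate 2 and 152-fold in replicate 3. Per kb of peak the ratios were 94.1, 78.3 and 129, lower than the ratios of reads but in the same order. Of 137 coding genes that overlapped 2 or more coherent peaks, ftz-f1 was number 9 by the ratio between its highest and lowest peak by mean CPM, at 116, while the median gene had 5.39.

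**Figure D2:**
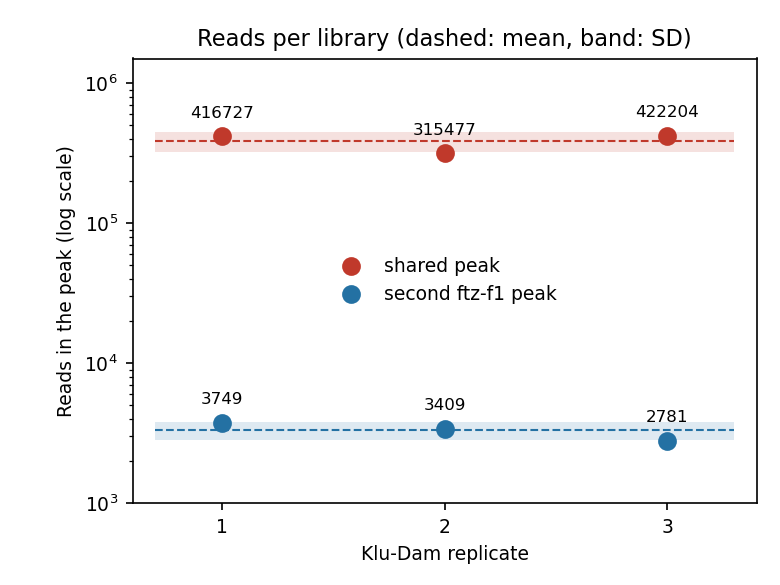
Reads in the shared peak and in the second ftz-f1 peak, on a log axis, for the 3 Klu-Dam replicates. Points are single libraries, dashed lines the means and bands 1 SD. The shared peak lies between 315477 and 422204 reads and the second peak between 2781 and 3749.

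By mean CPM the shared peak ranked 3 of 1122 coherent peaks and the second peak ranked 527. Its place in single libraries was less fixed, at rank 3 in replicate 1, 7 in replicate 2 and 2 in replicate 3. In replicate 2 it was below the peaks listed with CG2022, neo, CG31875, ptr, CG7927 and SKIP, and in replicate 3 the peak listed with CG7927 alone was above it. Leaving out replicate 1 or replicate 3 put it at rank 4. The peak next below it by mean CPM was that of CG7927, at 20215 ± 3364 (SD, n = 3), and the difference between them was much smaller than the spread over libraries. By mean CPM per kb the shared peak ranked 8. In the semicoherent set it ranked 4, at 19005 ± 2628 CPM (SD, n = 3), with read counts identical to the coherent ones. The second peak stood at rank 477, 520 and 585 in replicates 1, 2 and 3, and at 704 per kb.

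**Figure D3:**
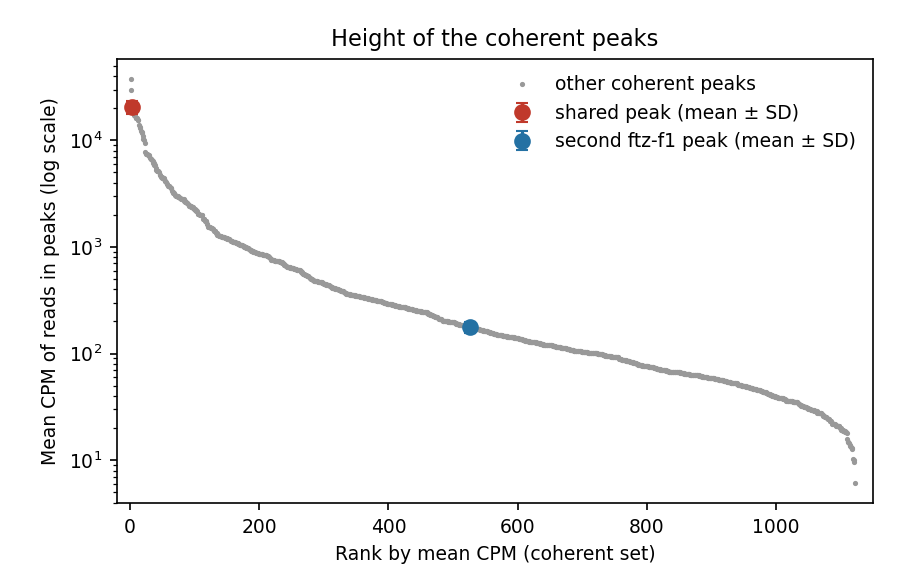
Mean CPM of the reads in peaks, on a log axis, against rank for all 1122 coherent peaks. Grey points are single peaks, and the coloured points with SD over 3 libraries are the shared peak (rank 3) and the second ftz-f1 peak (rank 527). The former sits at the steep start of the curve and the latter near its middle.

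On the CPM scale both peaks varied over the libraries somewhat less than the median peak but by more than counting error. The coefficient of variation of the CPM was 14.4% for the shared peak and 12.4% for the second peak, against a median of 16.7% over all coherent peaks. Counting error alone gives about 0.162% and 1.75%. With median-of-ratios size factors in place of CPM, the coefficients were 18.0% for the shared peak and 15.2% for the second peak. The median over all peaks under that scaling is not given here. Replicate 2 set most of the spread of the shared peak, whose coefficient was 5.31% without it, and replicate 3 that of the second peak, at 2.10% without it. On the log2 scale replicate 2 over replicate 1 gave -0.31 for the shared peak and 0.15 for the median peak, and 2.85% of the coherent peaks had a lower ratio. Replicate 3 over replicate 1 gave 0.11 for the shared peak, equal to the median peak, and -0.34 for the second peak. The shared peak was highest and the second peak lowest in replicate 3.

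The 5 coherent peaks closest to the shared peak in their log2 CPM over the 3 libraries were those listed with CG7927, ptr, CG42360, SKIP and Rpn10, at Euclidean distances of 0.22, 0.47, 0.66, 0.69 and 0.72. All were among the 11 highest peaks, and the measure rests on 3 values a peak that share the library depths. Rpn10 encodes the ubiquitin receptor of the proteasome. The second peak had closer matches, with CG31038 the nearest at 0.11, since many peaks share its height.

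The shared peak lay at the 3' end of ftz-f1 and the second peak at its inner starts. Of the 3233 bp of the shared peak, 69.2% was 3' UTR, 21.2% coding exon, 5.82% intron and 3.80% intergenic. Over all coherent peaks 9.27% of the bases were 3' UTR, 35.5% coding exon, 35.7% intron and 11.6% intergenic. The 3' UTR part came from both genes, with 2 of the 4 annotated ftz-f1 transcripts ending at 18750607 and the others at 18751749, and both of these ends lay inside the peak. It also took in 3 exons with 451 coding bases of each ftz-f1 transcript and 229 of the 990 coding bases of Atg3, or 23.1%. The ftz-f1 exons there encode the last part of the protein, where nuclear receptors carry the ligand-binding domain.

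The second peak held 1359 bp of 5' UTR (49.7%), 820 bp of coding exon (30.0%) and 558 bp of intron (20.4%), with no intergenic base. The 5' ends of 3 of the 4 ftz-f1 transcripts were inside it, with 2 at 18765744 and 1 at 18764956. The fourth transcript started at 18801309, 37743 bp from the first base of the peak, and no coherent peak lay at that start. The coding bases in the second peak made up 34.0% of the coding sequence of 2 of the short transcripts, 32.0% of that of another and 9.64% of that of the long one. The peak covers the bases before both of these inner starts, and those before 18764956 are not printed. The 150 bases before the 5' end at 18765744 (chr3L:18765745-18765894) are shown because 2 transcripts start there. They are printed on the minus strand, so that transcription continues to the right, with recurring 8-mers described further on in capitals.
ftz-f1, 150 bases before the inner start: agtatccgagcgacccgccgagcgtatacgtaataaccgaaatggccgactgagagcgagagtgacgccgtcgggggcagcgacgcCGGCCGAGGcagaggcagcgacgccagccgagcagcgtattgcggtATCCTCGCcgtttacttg

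This stretch held 0 GATC sites and 0 matches to GTGGG on either strand. Of 13945 such stretches before coding genes, 25.8% held a GATC and 16.0% a GTGGG.

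The listed links between genes and peaks depended on how distance was measured. The tables gave 0 bp for Atg3 and ftz-f1 and 1787 bp for Nufip with the coherent peak, 1788 bp with the semicoherent one, whose start is written 1 bp later. These equal the number of bases from the end of Nufip to where each table starts the peak. Measured this way, lncRNA:CR45938, a non-coding RNA gene inside ftz-f1 on the same strand, was at 3642 bp, beyond the 2 kb limit, although it begins 410 bp after the end of the shared peak. It was not listed. MED11, the gene past Nufip, lay 3532 bp from the shared peak and was not listed either. Nufip was thus linked to the peak by distance alone, with the part of Atg3 that the peak does not cover between them.

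The shared peak stood apart from other peaks on its left. The nearest coherent peak before it, listed with not (FBgn0013717), a component of the SAGA deubiquitinase module, lay 130298 bp away and held 21.9 ± 5.37 CPM (SD, n = 3). The gap between the peaks of the locus was 10178 bp, and the next peak after the second one, listed with CG14073, lay 40787 bp on with 136 ± 62.3 CPM (SD, n = 3). The median gap between coherent peaks on 3L was 54712 bp. Within 50 kb of the centre of the shared peak there was 1 other coherent peak, as for the median peak of the arm, and within 100 kb there were 2. Among 79 coherent peaks that overlapped 2 coding genes and held both 3' ends and no 5' end, the shared peak was the highest by mean CPM, and the median of these peaks was 157 CPM, against 155 over all peaks. Among the 399 peaks over 2 or more coding genes it was also the highest, with a median of 197 CPM in that group. As the peak was chosen for its height, these places are a description.

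The shared peak was poor in G and C. Its GC content was 34.2%, and the median coherent peak had 45.4%. Only 0.980% of the coherent peaks had a lower value. The other 11 peaks at or under its GC content had between 26.2 and 1551 CPM, with a median of 108, and none of the other 99 of the 100 highest peaks had a GC content as low. The other peaks among the 10 highest had between 40.5% and 53.2%. The second peak was at 43.0%. Whether base composition plays a part in the counts was not tested.

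**Figure D4:**
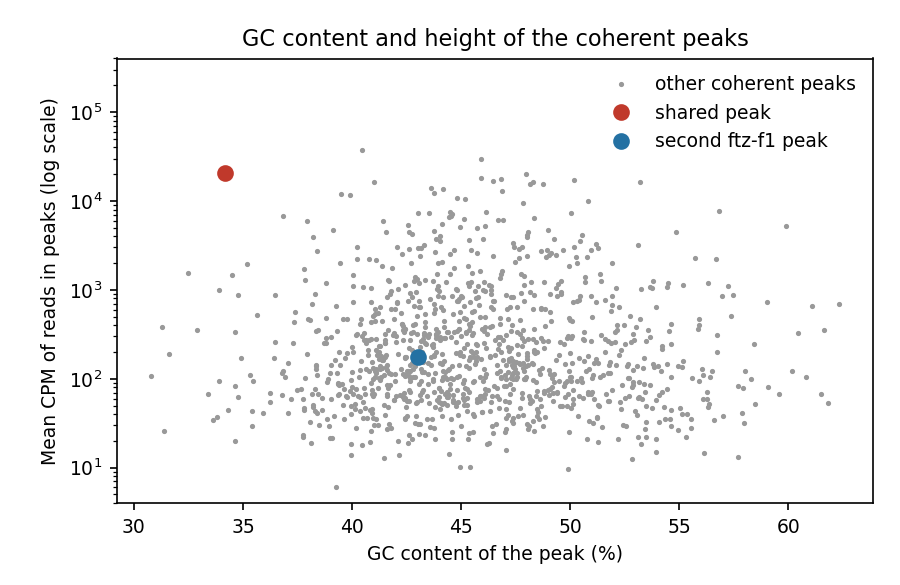
Mean CPM of the reads in peaks, on a log axis, against GC content in percent for the 1122 coherent peaks. The shared peak (34.2% GC, 20537 CPM) lies alone at the upper left, and the second ftz-f1 peak (43.0%, 177 CPM) lies in the main cloud.

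DamID amplifies fragments that run from one GATC site to another, so the spacing of these sites was compared. The shared peak held 8 inner GATC sites and so spanned 9 fragments, of 111 to 721 bp, and 57.0% of 8648 consecutive windows of its width along 3L held at least as many. The second peak held 3 and spanned 4 fragments of 549 to 803 bp, and 89.2% of 10218 windows of its own width held at least as many. Per fragment the shared peak held 2282 CPM and the second 44.2 CPM. The part of site spacing in the counts was not tested. Of the 8 sites in the shared peak 6 lay in 3' UTR and 2 in coding exons, and of the 3 in the second peak 2 lay in 5' UTR.

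Matches to the core of the motif known for WT1 and EGR zinc fingers in vertebrates were sparse in the shared peak. The letters GCGTGGG occurred 0 times in either peak on both strands, while 19.5% of coherent peaks had at least 1 match, as had 21.7% of 3L windows as wide as the shared peak and 18.7% of those as wide as the second. The shorter GTGGG, which GCGTGGG contains, occurred 2 times in the shared peak, where the median window of that width held 5 and 93.8% held at least 2. The second peak had 5 matches, where the median window of its width held 4. Per kb this is 0.62 for the shared peak, 1.83 for the second and 2.06 over all coherent peaks. The windows were matched for width and not for GC content, which was 34.2% in the shared peak. The part of base composition in the number of matches was not tested. The matches in coding exons are printed on their own strand, with GTGGG in capitals, as these are the sites outside UTRs. The first is at chr3L:18752780-18752808 on the plus strand, and the others are at chr3L:18763658-18763686 and chr3L:18764074-18764102 on the minus strand.
Shared peak, ftz-f1 last coding exon: agcagcgtttggGTGGGcgcactgccggc
Second peak, ftz-f1 coding exon, first match: tcctccggttccGTGGGcaatggcagcgg
Second peak, ftz-f1 coding exon, second match: tggccggaggcgGTGGGagtggcagcggc

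These letters are not the position weight matrix of Klu, and a match is not a binding site.

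A set of overlapping 8-mers recurred in the coherent peaks. Among 8-mers found in at least 50 peaks on either strand, CGAGGATC had the largest ratio of occurrence in peaks to the rest of the arms, at 8.14. It ends in GATC and was present in 321 peaks (28.6%). The next were ATCCTCGG, CCTCGGCC and GCCGAGGA, which on one strand or the other share a run of letters with it. The first 10 such 8-mers were present in 66.5% of coherent peaks, and each of the 10 highest peaks held at least 1. Median height was 124 CPM per kb in peaks with any of them and 61.0 in peaks with none. It was 200 in peaks with CGAGGATC and 75.7 in the rest. The 8-mers were picked from these same peaks, and a wider peak can hold more of them. These heights are thus a description, and the part of width was not tested. Dam-only counts were not used, and whether these 8-mers mark Klu binding or the amplification of GATC fragments was not tested.

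The shared peak held 2 of these 10, CGAGGATC and ATCCTCGC, which overlap each other at its last GATC site, in the last coding exon of ftz-f1 (chr3L:18752818-18752847, minus strand). The site is printed because it is the only place in the shared peak with such an 8-mer.
Shared peak, CGAGGATC in capitals: gccgttcgcggCGAGGATCacctgtacacc

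The second peak held 3 of the 10, all in the intron before the inner start and none at a GATC site, as capitals in the promoter stretch show. Of these, CCTCGGCC and CGGCCGAG overlap each other. The median coherent peak held 2 of the 10. Whether these letters play a part in the counts was not tested.

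**Figure D5:**
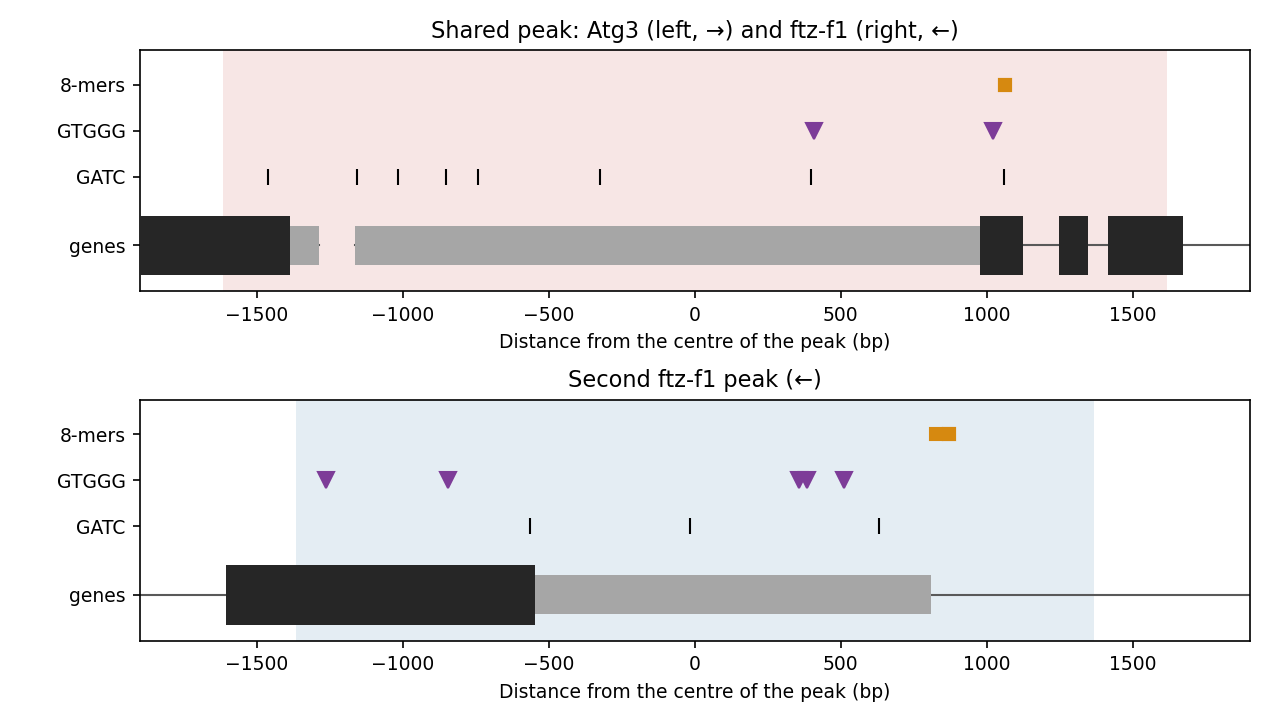
The shared peak (top) and the second ftz-f1 peak (bottom), with distance from the centre of each in bp. Shading is the peak, black boxes are coding exons, grey boxes UTRs, ticks GATC sites, triangles GTGGG matches and squares recurring 8-mers. The shared peak holds 8 GATC sites and 2 GTGGG matches, and its 8-mers sit on the last GATC site.

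Other genes of the same pathways were looked up in the gene tables. Among all 13945 coding genes of the reference, 11.1% were listed within 2 kb of a coherent peak. Without Atg3, 5 of 23 autophagy genes were listed (21.7%). These were Atg17 and Atg13, partners of the Atg1 kinase, Atg4a, a protease that processes Atg8, Pi3K59F, the lipid kinase known as Vps34, and ref(2)P, the fly p62. Atg17 had the highest of these peaks, at 2965 ± 298 CPM (SD, n = 3, rank 75), and the others ran from 95.3 at Pi3K59F to 164 at Atg13. This peak is 1 of 3 listed with Atg17 and was also listed with another gene. The others, with Atg17 as closest listed gene, had 183 and 47.7 CPM (ranks 517 and 961). The peaks of Pi3K59F and Atg4a were also listed with another gene. Atg4a was listed 807 bp from its peak, although a coherent peak overlapped its gene body in the reference. Atg7 and Atg18b were listed in the semicoherent table only, at 28.0 ± 15.1 and 2340 ± 242 CPM of its reads (SD, n = 3). That table listed 7 of the 23 autophagy genes and 12.3% of all coding genes. The substrates of Atg3, Atg8a and Atg8b, were in neither table.

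Without ftz-f1, 6 of 20 nuclear receptor genes were listed (30.0%). They were the ecdysone receptor gene EcR and the ecdysone-regulated Eip75B and Hr4, together with svp, kni and eg. Their highest peaks had from 105 CPM at eg to 617 ± 83.2 at kni (SD, n = 3), with EcR at 149 ± 41.3, Eip75B at 129 ± 64.4, Hr4 at 244 ± 27.7 and svp at 385 ± 65.8 (SD, n = 3). This peak of Hr4 is 1 of 2 listed with it, at a listed distance of 1294 bp, and another listed gene was closer. The peak with Hr4 as its closest listed gene had 74.8 CPM (rank 808). Hr39, the other fly receptor of the FTZ-F1 class, was in neither table, nor was usp, the partner of EcR, although a coherent peak overlapped its gene body. Of 4 further genes, Eip74EF (639 ± 40.0 CPM) and Eip93F (30.4 ± 6.36 CPM, SD, n = 3), both induced by ecdysone, were listed, br was listed in the semicoherent table only, and ftz, whose product acts with Ftz-f1, was in neither. Of 6 matched genes of the box C/D particle and its assembly other than Nufip, 1 was listed, nop5, a core protein of the particle, at 175 ± 42.0 CPM (SD, n = 3). All of these peaks were lower than the shared peak, and those of nop5 and Eip93F were also listed with another gene. The median length without the members was 3.46 kb for the autophagy genes, 17.9 kb for the nuclear receptor genes, 63.0 kb for the 4 further genes and 1.90 kb for the box C/D genes, against 2.17 kb for all coding genes. A longer gene can meet more peaks, and the part of length in these shares was not tested.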

How the data were processed

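Per the paper's methods, the authors aligned single-end reads to UCSC dm6 with bowtie2 in damidseq_pipeline, computed log2 ratios to Dam-only, called peaks in each replicate, selected reproducible ones by the irreproducible discovery rate between replicates 1 and 2, and linked genes by their own script. The coherent table held 1667 gene identifiers, which equals the paper's number of genes near reproducible peaks, a number it also ties to peaks found in every replicate. Neither rule is named coherent or semicoherent in the sources used here, nor is the counting of reads over peaks described. The paper's number of reproducible peaks was larger than the number of distinct coherent peaks. The deposited tables hold whole-number read counts per peak for 3 Klu-Dam libraries, not normalized, with a gene distance in bp that the authors worked out. Replicates were isolated on different dates.

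Entries were reduced to distinct peaks, 1122 coherent and 1250 semicoherent. Coherent starts fell on GATC sites of Release 6, and semicoherent starts lay 1 or 2 bp further on and were moved back. CPM were taken over the reads in the peaks of a set, which are not the depth of a library. The SD covers 3 libraries. Amplified reads are not independent molecules, so counting error is a lower limit. Genes and features came from Ensembl release 115, sequence from RefSeq Release 6, with a minimum overlap of 1 bp. Windows were consecutive on 3L. The 8-mer ratio was tested on simulated data. The locus, lists and rules were chosen with earlier results of these data known. Genes named were the 3 members, genes within 2 kb, list genes in a table, neighbours and the 5 most alike peaks, and the genes of higher peaks in replicate 2, CG31038, MED11, Hr39, usp, Atg8a, Atg8b and ftz were added after their values were seen. Of 57 list genes 56 were matched by symbol, all but hoi. No Dam-only counts were used, and 0 sample columns were left out. Python 3.11.15, numpy 2.4.6 and pandas 2.3.3 were used.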

Additional observations from a re-analysis of the deposited data

How the results depend on the processing

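No paired analysis was possible because the tables used here count reads of 1 group alone, and the planned fits of Klu-Dam and Dam-only libraries, with the replicate number as a block or without, were not run. Of 54 values under other settings, 46 moved by less than the spread between libraries or, for ranks, counts and coefficients, stayed of similar size, and the other 8 follow. The mean of the shared peak was 11246 CPM with the library totals of the study, by construction since more reads are counted, and 19299 to 22179 CPM on leaving out 1 replicate. Its rank was 3 to 4 on leaving out 1 replicate and 8 by reads per kb, which divides by a width above that of most peaks. Its coefficient of variation ran from 5.31% without replicate 2 to 20.2% without replicate 1. The number of gene bodies covered was 0 when at least 50% of the body had to be inside the peak. For the second peak the mean was 96.9 CPM with library totals, and the coefficient was 2.10% without replicate 3. When a gene body had to overlap a coherent peak, the box C/D genes with a peak, Nufip included, fell from 2 to 1. Without Nufip the number was 1 of 6 under both rules. Of the 4 ecdysone genes those with a peak fell from 2 to 1, where Eip93F lies 1416 bp from its peak. Among all 13945 coding genes 9.99% met the overlap rule and 11.1% were listed near a coherent peak. The fewest reads in a library were 2781 for the peaks of the locus, 338 for a neighbour and 302 for a list gene, Atg7. The level of unfused Dam was not used here.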
